A study of Mus musculus with 12 samples.

Results

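Genes that carry cells through division were followed in mouse macrophages given increasing amounts of interferon gamma (IFNγ). The set holds 42 genes listed by symbol and sorted by the phase they act in, with 11 genes of G1, 13 of S phase and 18 of G2 and mitosis (G2/M). An entry of the deposited expression table counted as a member when its gene names, split at commas, held a listed symbol. This gave 40 members among 46729 entries, and Gins2 and Cdt1 of the S phase genes are not analysed here. The cells were C57BL6 bone marrow macrophages, differentiated for 10 days with medium from L-929 cells as the source of colony-stimulating factor 1 (CSF1), after a first stage with interleukin-3 as well. They were untreated or received IFNγ at 0.2, 2 or 20 U/ml for 8 h in fresh medium, and the label of the highest dose gives U without a volume. Each of the 4 groups has 3 libraries in the labels, which the labels do not tie to separate animals or cultures, but the table holds 1 value per gene and group. No difference between doses therefore has a replicate check, and no p-value or standard deviation can be given for one.

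A dividing cell passes G1, in which D-type cyclins with their kinases Cdk4 and Cdk6 and then E-type cyclins with Cdk2 release E2F factors from their inhibitors. E2F factors switch on genes that license and copy DNA in S phase. In G2 and mitosis a later wave of genes, bound by the DREAM and B-MYB complexes and FOXM1, provides the kinases, motors and checkpoint proteins that separate the chromosomes. Macrophages grown from bone marrow divide in response to CSF1, and IFNγ is known to slow that division.

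Values are FPKM, a measure corrected for transcript length and sequencing depth, so that levels of different genes can be set side by side. Ratios are differences of log2(FPKM + 1), and a ratio of at least 2-fold, that is 1 on the log2 scale, was called higher or lower. All 40 members passed the filter of a mean of at least 1 FPKM with no group at 0, which left 11580 entries in all. The median log2 ratio over these entries against untreated cells was 0.00, 0.01 and 0.01 in order of dose. The cells carried macrophage markers such as Csf1r (340.2 to 418 FPKM across the groups) and Adgre1 (137 to 189 FPKM). The macrophage markers Mrc1 and Fcgr1 differed with dose. From untreated cells to 20 U/ml Mrc1 was at 88.5, 81.3, 53.9 and 24.0 FPKM and Fcgr1 at 32.3, 53.5, 148 and 348. Lyz2 was listed at 0 in the first 3 groups and at 7449 in the last. Its entry therefore did not pass the filter, and its values are not read as a difference with dose. Markers of dividing marrow cells of other kinds were low: 5 of 6 progenitor markers, 6 of 8 neutrophil precursor markers and 7 of 7 erythroid markers stayed under 1 FPKM in every group. Kit, which marks progenitors, had 0.320 FPKM without IFNγ and 0.0133 at 20 U/ml. The summed progenitor markers came to 7.11, 7.67, 8.99 and 5.59 FPKM in order of dose, almost all of it Cd34, and their part in the results was not tested.

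The members parted by phase at the highest dose. At 20 U/ml the 11 G1 members had a median log2 ratio to untreated cells of 0.33 and the 11 S members one of 0.30, while the 18 G2/M members had one of -0.69. All 18 G2/M members were below their untreated level, against 3 of 11 in G1 and 3 of 11 in S, and 48.9% of all entries were lower by any amount. By the 2-fold rule 2 of 40 members were higher, Ccnd1 and Ccnd2, where 6.51% of all entries were. The 5 lower members, Mki67, Cenpa, Ccnb2, Birc5 and Cdc20, were all of G2/M, where 2.94% of all entries were lower. At 1.5-fold, 7 members were higher (5 of G1 and 2 of S, against 12.6% of all entries) and 13 were lower (all of G2/M, against 9.6%). Upper-quartile scaling moved the median of all entries at 20 U/ml to -0.13 and quantile normalization to -0.08. Under these scalings the median was 0.17 and 0.18 for G1 members, 0.14 and 0.14 for S members and -0.84 and -0.83 for G2/M members, all 18 of which were below 0. Lower members by the 2-fold rule then numbered 8 and 8 in place of 5, against 4.12% and 3.83% of all entries, while 5.27% and 5.66% of all entries were higher. In these bulk samples, fewer cells in a phase and less RNA per cell cannot be told apart.

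**Figure D1:**
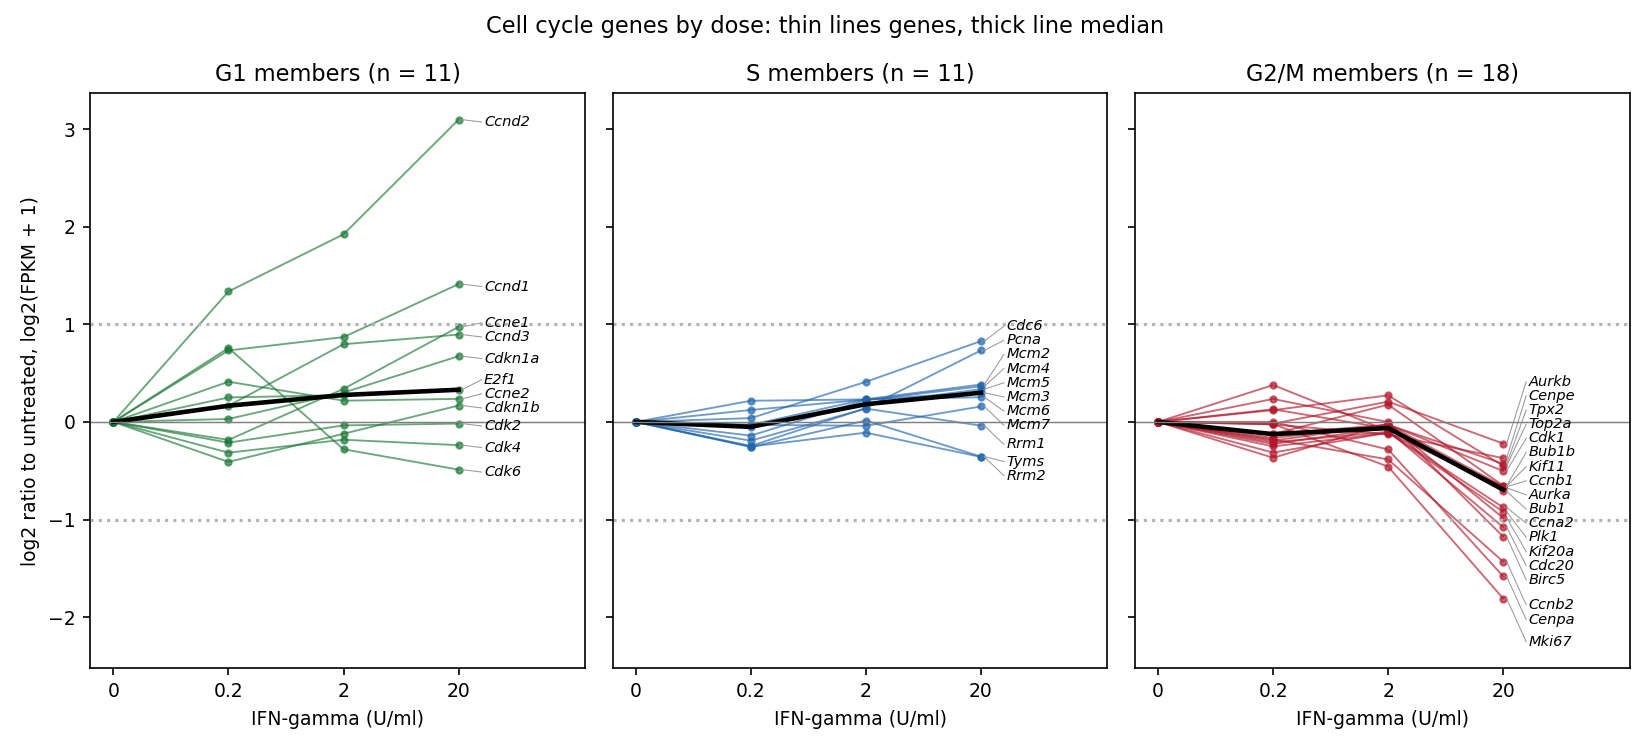
Log2 ratio of each member to untreated cells (vertical axis, log2(FPKM + 1)) at 0, 0.2, 2 and 20 U/ml IFNγ (horizontal axis, evenly spaced), in 1 panel per phase. Thin lines are genes, thick lines medians and dotted lines the 2-fold rule. The 18 G2/M lines all end below 0, with a median of -0.69, whereas 8 of 11 G1 lines and 8 of 11 S lines end above 0.

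The D-type cyclins, which couple growth factor signals to the start of the cycle, were higher, and Ccnd2 and Ccnd1 had the largest upward ratios of all members. Here and below, runs of 4 values go from untreated cells through 0.2 and 2 to 20 U/ml. Ccnd2 (chromosome 6, 127125162 to 127152193, GRCm38) was at 2.47, 7.76, 12.2 and 28.7 FPKM. Ccnd1 (chromosome 7, 144929931 to 144939925) was at 64.7, 108, 119 and 174 FPKM. Ccnd3 (chromosome 17, 47505051 to 47599691) was at 38.8, 43.7, 68.1 and 73.0 FPKM. Each of the 3 genes was higher at every step of dose, except that with quantile normalization Ccnd3 was slightly lower from 2 to 20 U/ml (-0.02), and Ccnd2 was past 2-fold already at 0.2 U/ml. The log2 ratios at 20 U/ml were 3.10 for Ccnd2, an 11.6-fold difference in FPKM, 1.41 for Ccnd1 and 0.89 for Ccnd3. Summed over the 3 genes, D-type cyclin FPKM was 106 without IFNγ and 275 at 20 U/ml. Ccnd1 made up most of this sum in every group, between 59.7% and 67.8%. The share of Ccnd2 was 2.33% without IFNγ and 10.4% at 20 U/ml. The order of the levels, Ccnd1 over Ccnd3 over Ccnd2, was the same in all 4 groups.

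The kinases that pair with these cyclins did not follow them. Cdk4 (chromosome 10, 127063534 to 127067920), at percentile 96.2 of all entries in untreated cells, was at 285, 229, 251 and 241 FPKM. Cdk6 was at 9.69, 17.1, 7.80 and 6.61 FPKM. Its highest value was thus at the lowest dose and its lowest at the highest dose. Cdk2, the partner of the E-type cyclins, was at 18.2, 15.5, 17.7 and 17.9 FPKM, so its untreated and 20 U/ml values were close.

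The E-type cyclins, which act at the passage from G1 into S, differed from each other. Ccne1 (chromosome 7, 38097984 to 38107534) was at 11.9, 10.4, 15.3 and 24.3 FPKM, a log2 ratio of 0.97 at the highest dose. Ccne2 was at 11.1, 15.2, 13.1 and 13.3 FPKM, a log2 ratio of 0.24. The 2 genes stood at nearly the same level without IFNγ, and Ccne1 was the higher at 20 U/ml. E2f1, the transcription factor that drives S phase genes, was at 25.5, 30.5, 31.1 and 32.3 FPKM, with its largest step between untreated cells and 0.2 U/ml.

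Of the inhibitors that hold cyclin-dependent kinases in check, Cdkn1a was higher and Cdkn1b was near its untreated level. Cdkn1a (chromosome 17, 29090976 to 29100727) was at 121, 124, 149 and 194 FPKM, a log2 ratio of 0.67 at 20 U/ml. Cdkn1b (chromosome 6, 134920401 to 134925513) was at 20.6, 15.2, 18.8 and 23.2 FPKM, a log2 ratio of 0.17. Cdkn1a was thus above Cdkn1b in every group. At 20 U/ml it was also above Ccnd1, as it was in the 3 other groups.

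**Figure D2:**
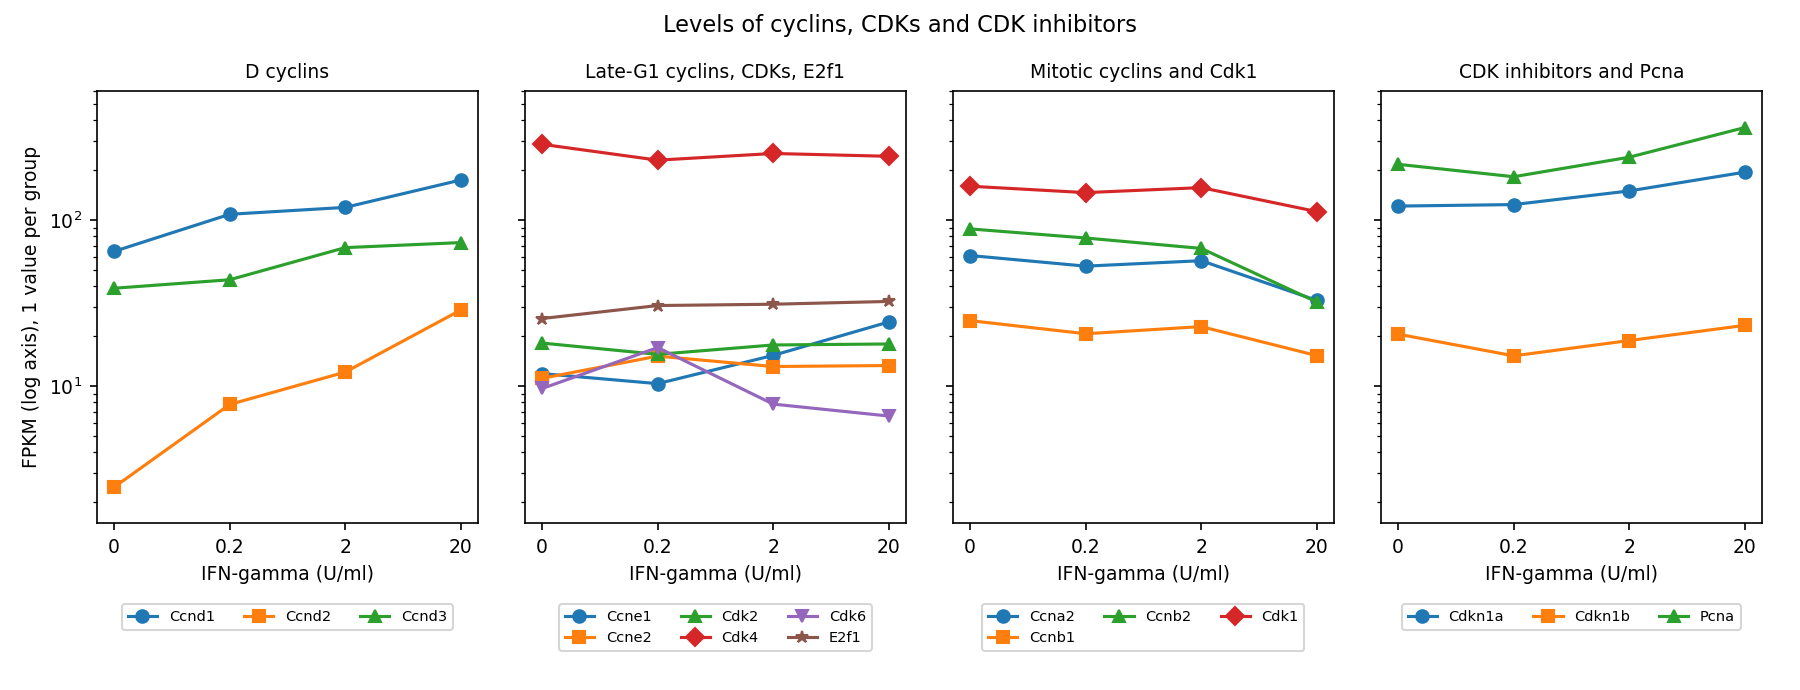
FPKM (vertical log axis, 1 value per group) of cyclins, cyclin-dependent kinases, their inhibitors, E2f1 and Pcna at 0, 0.2, 2 and 20 U/ml IFNγ (horizontal axis). The D-type cyclins, Ccne1, Cdkn1a and Pcna are highest at 20 U/ml, and Ccna2, Ccnb1, Ccnb2 and Cdk1 are lowest there.

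Among the S phase genes, licensing factors and the DNA clamp were at their highest at 20 U/ml and the enzymes of nucleotide synthesis were not. Pcna (chromosome 2, 132249162 to 132253314), the sliding clamp that holds DNA polymerase on its template, was at 216, 182, 238 and 359 FPKM, a log2 ratio of 0.73 at 20 U/ml. Cdc6 (chromosome 11, 98907801 to 98923940), which loads the replicative helicase at origins, was at 5.34, 5.51, 7.43 and 10.3 FPKM, a ratio of 0.83. Both passed 1.5-fold at the highest dose and neither passed 2-fold.

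The 6 subunits of the MCM helicase, which unwinds DNA ahead of the fork, lay close together in their ratios. Mcm2 was at 16.0, 15.6, 18.9 and 21.1 FPKM, Mcm4 at 17.5, 15.8, 20.6 and 22.8, and Mcm5 at 36.0, 34.7, 40.9 and 45.6. These 3 had their lowest value at 0.2 U/ml, whereas Mcm3 (75.7, 88.1, 89.0 and 93.3 FPKM) and Mcm6 (70.9, 77.3, 83.3 and 84.7 FPKM) did not. Mcm7, whose entry also takes in the microRNAs Mir25 and Mir93, was at 57.4, 56.2, 55.8 and 64.2 FPKM. All 6 were above their untreated level at 20 U/ml by log2 ratios between 0.16 and 0.38, below both size rules. With upper-quartile scaling or quantile normalization the ratio of Mcm7 was -0.00 and -0.02, and the other 5 stayed above 0.

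The enzymes that supply deoxynucleotides were at or below their untreated level at 20 U/ml. Rrm1 and Rrm2 encode the large and small subunits of ribonucleotide reductase. Rrm1 was at 92.3, 80.7, 102 and 89.9 FPKM and Rrm2 at 39.2, 32.7, 36.2 and 30.3. Tyms, the thymidylate synthase, was at 61.5, 51.3, 62.2 and 47.9 FPKM. The log2 ratios at 20 U/ml were -0.04, -0.36 and -0.36, within both size rules, so these 3 S members differ in sign from the 8 others.

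The 18 G2/M members are genes of entry into mitosis and of chromosome segregation. In untreated cells all were above the median level of all entries, between 12.9 FPKM for Kif11 and 229 FPKM for Birc5. All 18 had their lowest value of the 4 groups at 20 U/ml, as did 3738 of all 11580 entries. At that dose the 18 were at 26.5% to 85.4% of their untreated FPKM, with a median of 59.5%. Their highest value was not in the same group: it was at 0.2 U/ml for Birc5, Cdc20, Aurka and Cenpa, at 2 U/ml for Aurkb, Bub1b and Top2a, and in untreated cells for the others. Mki67 (chromosome 7, 135689784 to 135716361), the proliferation marker that coats mitotic chromosomes, was at 35.4, 34.9, 25.5 and 9.39 FPKM. Cenpa (chromosome 5, 30666777 to 30674830), the histone variant that marks centromeres, was at 159, 159, 131 and 52.4 FPKM. Birc5 (chromosome 11, 117849251 to 117855743), a subunit of the chromosomal passenger complex with Aurkb, was at 229, 269, 228 and 101 FPKM. The log2 ratios at 20 U/ml were -1.81 for Mki67, -1.58 for Cenpa and -1.18 for Birc5. Aurkb itself, the kinase of that complex, was at 38.8, 38.3, 45.0 and 33.1 FPKM, the smallest difference of the 18 at -0.22.

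The cyclins and the kinase that drive mitosis were lower to unequal extents. Ccnb2 (chromosome 9, 70407692 to 70421547) was at 88.3, 77.8, 67.4 and 32.1 FPKM, a log2 ratio of -1.43 at 20 U/ml. Ccnb1 was at 24.8, 20.7, 22.8 and 15.3 FPKM (-0.66) and Ccna2, the cyclin of S and G2, at 61.0, 52.7, 56.8 and 32.8 FPKM (-0.88). Cdk1, their kinase, was at 159, 146, 156 and 112 FPKM (-0.50). Ccnb2 was above Ccna2 in the first 3 groups, and at 20 U/ml the 2 were at about the same FPKM.

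Transcripts of genes that act at the spindle and its checkpoint were also lower at 20 U/ml. Cdc20, the activator of the anaphase-promoting complex, was at 53.0, 69.1, 49.6 and 24.6 FPKM (-1.08). The kinase Plk1 was at 34.8, 27.8, 32.2 and 17.9 FPKM (-0.92), and Kif20a, a motor of cytokinesis, at 13.5, 10.3, 13.3 and 6.35 FPKM (-0.98). Both were just short of the 2-fold rule, and both passed it with upper-quartile scaling, at -1.07 and -1.12. The spindle kinase Aurka was at 32.4, 35.5, 30.8 and 19.9 FPKM and the motor Kif11 at 12.9, 11.2, 12.6 and 7.78. The checkpoint kinases Bub1 and Bub1b were at 15.6, 13.2, 15.0 and 9.15 and at 19.9, 18.2, 22.7 and 12.3 FPKM. The ratios of these 4 genes at 20 U/ml lay between -0.71 and -0.65, so all passed 1.5-fold. The spindle assembly factor Tpx2 was at 25.7, 22.8, 25.1 and 18.8 FPKM (-0.43) and the kinetochore motor Cenpe at 15.0, 14.7, 13.6 and 11.4 (-0.37). Top2a, the enzyme that untangles DNA, was at 165, 179.6, 199.6 and 121 FPKM (-0.45), so these 3 stayed within 1.5-fold. The entry of Top2a also takes in Gm23451.

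The G2/M difference lay in the last step of dose. At 2 U/ml 0 of 18 G2/M members passed even 1.5-fold, with a median log2 ratio of -0.06 to untreated cells, and 3 of the 18, Aurkb, Bub1b and Top2a, were above their untreated level. From 2 to 20 U/ml all 18 were lower, with a median of -0.75, where 47% of all entries were lower by any amount. For each of the 18 the step from 2 to 20 U/ml was larger in size than the whole difference between untreated cells and 2 U/ml. This held for 3 of 11 G1 members and 6 of 11 S members, and the share over all entries was not computed. By the 2-fold rule Mki67, Cenpa, Birc5 and Ccnb2 were lower at this step (4 of 40 members, against 1.11% of all entries), and Cdc20 was at -0.99. Ccnd2 alone was higher (1 of 40 members, against 2.9%). Mki67, Cenpa and Ccnb2 were already below untreated cells at 2 U/ml, by log2 ratios of -0.46, -0.28 and -0.38, and these 3 were the lowest G2/M members at that dose.

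The lower doses gave few members past 2-fold. At 0.2 U/ml against untreated cells 1 of 40 members was higher, Ccnd2, where 5.23% of all entries were, and 0 were lower, where 0.328% were. At 2 U/ml Ccnd2 was again the 1 higher member (2.5% of all entries) and 0 members were lower (0.76%). From 0.2 to 2 U/ml 0 members were higher (1.51% of all entries) and 1 was lower, Cdk6 (6.26%). These comparisons share group values, so the value of Cdk6 at 0.2 U/ml enters 2 of them. Over all 4 groups in order of dose, 8 of 40 members were higher at every step (5 of G1 and 3 of S, against 9.28% of all entries) and 3 were lower at every step (Mki67, Ccnb2 and Cenpe, against 6.54%). Only 3 and 2 members were higher at every step with upper-quartile scaling and quantile normalization, against 6.11% and 6.32% of all entries. With quantile normalization 5 members were lower at every step, against 7.82%. With the 0.2 U/ml group left out, as decided once its values were known, 15 of 18 G2/M members ran down from untreated cells through 2 to 20 U/ml, and 7 of 11 members in G1 and 7 of 11 in S ran up. Over all entries 25.7% then ran down and 30.3% up.

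Promoter sequences are shown because genes of the same phase are known to share elements near their start sites. RefSeq windows (GRCm38.p6) were at hand for 32 of the 40 members, and Ccnd1, Ccnd2, Ccne2, Mcm4, Ccna2, Aurkb, Kif20a and Tpx2 had none. The 250 bases before each start were searched on both strands for the cell cycle homology region (CHR, the element of DREAM and B-MYB complexes, TTTGAA or TTTAAA), for the CCAAT box, bound by NF-Y, and for E2F sites (TTCCCGC or TTGGCGC or TTCGCGC or TTGCCGC). On the other strand the CCAAT box can overlap an E2F site, and 2 E2F matches can overlap each other. Below, capitals mark matches to any of the 3 motifs, and sequences run 5′ to 3′ on the gene's strand. Ccnb2 (chr9:70421555-70421804, minus strand), Mki67 (chr7:135716380-135716629, minus strand) and Plk1 (chr7:122159185-122159434, plus strand) stand for genes with lower values at 20 U/ml. Mcm6 (chr1:128359706-128359955, minus strand) is the MCM gene with the most E2F matches and is not typical of the others.
Ccnb2: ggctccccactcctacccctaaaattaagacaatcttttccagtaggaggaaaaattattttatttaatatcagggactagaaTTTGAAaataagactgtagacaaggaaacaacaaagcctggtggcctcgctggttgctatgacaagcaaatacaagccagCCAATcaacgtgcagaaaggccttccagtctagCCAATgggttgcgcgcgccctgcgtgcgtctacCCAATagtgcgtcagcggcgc
Mki67: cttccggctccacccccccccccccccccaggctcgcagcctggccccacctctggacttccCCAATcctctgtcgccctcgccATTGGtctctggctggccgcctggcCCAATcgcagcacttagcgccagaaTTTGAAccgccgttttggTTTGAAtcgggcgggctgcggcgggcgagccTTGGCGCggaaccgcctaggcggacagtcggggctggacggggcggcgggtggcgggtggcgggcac
Plk1: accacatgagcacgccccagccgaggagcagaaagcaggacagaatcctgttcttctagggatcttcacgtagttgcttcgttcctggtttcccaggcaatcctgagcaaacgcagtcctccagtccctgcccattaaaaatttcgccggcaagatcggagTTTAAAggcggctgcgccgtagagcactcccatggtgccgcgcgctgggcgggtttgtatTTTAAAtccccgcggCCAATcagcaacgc
Mcm6: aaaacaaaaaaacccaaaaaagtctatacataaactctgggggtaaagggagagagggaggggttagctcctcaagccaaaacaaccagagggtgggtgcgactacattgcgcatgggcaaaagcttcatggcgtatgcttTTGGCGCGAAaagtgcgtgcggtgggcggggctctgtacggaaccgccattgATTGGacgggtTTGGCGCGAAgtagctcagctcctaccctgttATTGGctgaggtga

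Ccnb2 had 3 CCAAT boxes, whose first bases lay at -87, -54 and -21 from the start, and a CHR match at -167. Mki67 had 3 CCAAT boxes (-188, -166 and -141) and 2 CHR matches (-116 and -98), with 1 E2F match at -67. Plk1 had CHR matches at -89 and -29 and a CCAAT box at -14. Mcm6 had no CHR match and 4 overlapping E2F matches in 2 pairs, at -109 and -106 and at -46 and -43, and it had CCAAT boxes at -57 and -14. The other MCM genes differed from it. Mcm2 and Mcm3 had no E2F match, Mcm5 had 3 and Mcm7 had 1 in each of its windows. Mcm2 and Mcm5 each held a CHR match. Of 14 G2/M windows 10 held a CHR match and 13 a CCAAT box, and 9 held both. CCAAT boxes were also in 9 of 11 S windows and in 3 of 10 G1 windows. The 11 S windows are of 10 genes and the 10 G1 windows of 8, because Mcm7, Ccnd3 and Cdkn1a each have 2. Of all 32851 windows 25.2% held a CHR match, 33.8% a CCAAT box and 8.78% both. S windows held E2F matches in 7 of 11 cases, G2/M windows in 3 of 14 and G1 windows in 1 of 10, against 7.89% of all windows. CHR matches were in 2 of 11 S windows and 2 of 10 G1 windows. The Birc5 window held a CHR match at -220 and no CCAAT box, although Birc5 was among the 5 lower members. The match is one of letters and says nothing about binding in these cells.

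Other genes of the cell cycle, taken from 7 further lists, gave 169 entries that passed the filter, while Rb1 and Dut were found in more than 1 entry and were left out. The lists were drawn up with earlier results of these data known. Among 57 genes of the mitotic machinery, 15 were lower by at least 2-fold at 20 U/ml (2.94% of all entries were) and 0 were higher (6.51%), with a median log2 ratio of -0.69, equal to that of the G2/M members. Below their untreated level were 56 of the 57, against 48.9% of all entries. The exception, named after its values were seen, was Cdc25a, a phosphatase that also acts at the entry into S phase, with 4.40 FPKM in untreated cells against 6.28 at 20 U/ml. The entries of this list with the largest ratios were Cdkn3, a phosphatase of cyclin-dependent kinases, at 33.4, 26.2, 18.5 and 11.7 FPKM, and the merged entry of Stmn1, a tubulin-binding protein, and Gm23634, at 752, 1116, 712 and 299.6 FPKM. Ckap2, a spindle protein, was at 33.5, 52.4, 25.3 and 13.4 FPKM, and Pbk, a mitotic kinase, at 39.0, 28.4, 27.5 and 15.7.

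Of 39 genes of origin licensing and the replisome, 1 was higher by the 2-fold rule at 20 U/ml (6.51% of all entries were). In the other direction 0 were lower (2.94%), and the median was 0.21. Timeless, which protects the replication fork, was at 10.7, 21.1, 16.4 and 26.0 FPKM. Rfc3, a subunit of the loader of the Pcna clamp, was at 35.5, 38.2, 46.7 and 68.8 FPKM. The origin recognition subunit Orc4 was at 24.4, 21.4, 22.2 and 43.5 FPKM and the polymerase alpha subunit Pola2 at 15.8, 16.4, 21.0 and 25.1. Chromatin assembly genes (10 entries, median -0.00) and genes of repair and checkpoints (15 entries, median -0.06) had 0 entries past 2-fold in either direction at 20 U/ml. The shares of all entries at that dose were again 6.51% higher and 2.94% lower. The histone variants H2afz and H2afx were at 1265 and 82.3 FPKM without IFNγ against 858 and 56.1 at 20 U/ml. The chaperone Asf1b was at 48.2 and 36.4 FPKM and Uhrf1, a maintenance factor of DNA methylation, at 20.9 and 26.6 in the same groups. Of the repair list, the damage kinases Atm (3.65 and 7.54 FPKM) and Chek1 (6.60 and 9.93) were, with Rad54l (log2 ratio 0.43), above their untreated level, and Fancd2 (2.58 and 1.66) was below it.

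Nucleotide supply included the largest ratio upward of these lists. Samhd1, which breaks down deoxynucleotides and is known as an interferon-inducible restriction factor, was at 102, 143, 357 and 1008 FPKM, a log2 ratio of 3.29 at 20 U/ml. Dck, a salvage kinase for deoxynucleosides, was at 23.1, 25.8, 36.7 and 66.7 FPKM (1.49). Tk1, the thymidine kinase of dividing cells, was at 106, 104, 90.8 and 68.7 FPKM (-0.62). The other 9 of the 12 entries were within 1.5-fold at 20 U/ml, among them the nucleotide pyrophosphatase Dctpp1 (80.3 and 56.9 FPKM). Of all entries 12.6% were higher and 9.6% lower by at least 1.5-fold at that dose.

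Brakes of the cycle went both ways, with few entries past 2-fold. Of 19 entries 1 was higher by the 2-fold rule at 20 U/ml (6.51% of all entries were). Another 1 was lower (2.94%), and the median was 0.18, so these counts set the brakes apart from other entries in neither direction. Btg1, an antiproliferative gene, was at 27.9, 29.5, 43.3 and 75.4 FPKM (1.40). Gadd45a, a stress gene that restrains G2 kinases, was at 32.2, 22.6, 12.4 and 8.71 FPKM (-1.77) and past 2-fold already at 2 U/ml. The inhibitor Cdkn1c was at 7.34, 11.6, 7.11 and 3.23 FPKM and Rbl1, a relative of the retinoblastoma protein, at 9.18, 8.62, 13.3 and 18.3. Among 17 regulators of the E2F and MuvB group, 1 was higher (6.51% of all entries were) and 0 were lower (2.94%). The higher one was Max, the partner of Myc, at 55.3, 57.9, 75.9 and 128 FPKM (1.20). Foxm1, a driver of G2/M genes, shares its entry with 3 other genes and was at 14.5, 12.9, 17.1 and 10.4 FPKM (-0.44). Lin54, the DNA-binding MuvB subunit, and the repressor E2f8 both had a ratio of 0.39.

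**Figure D3:**
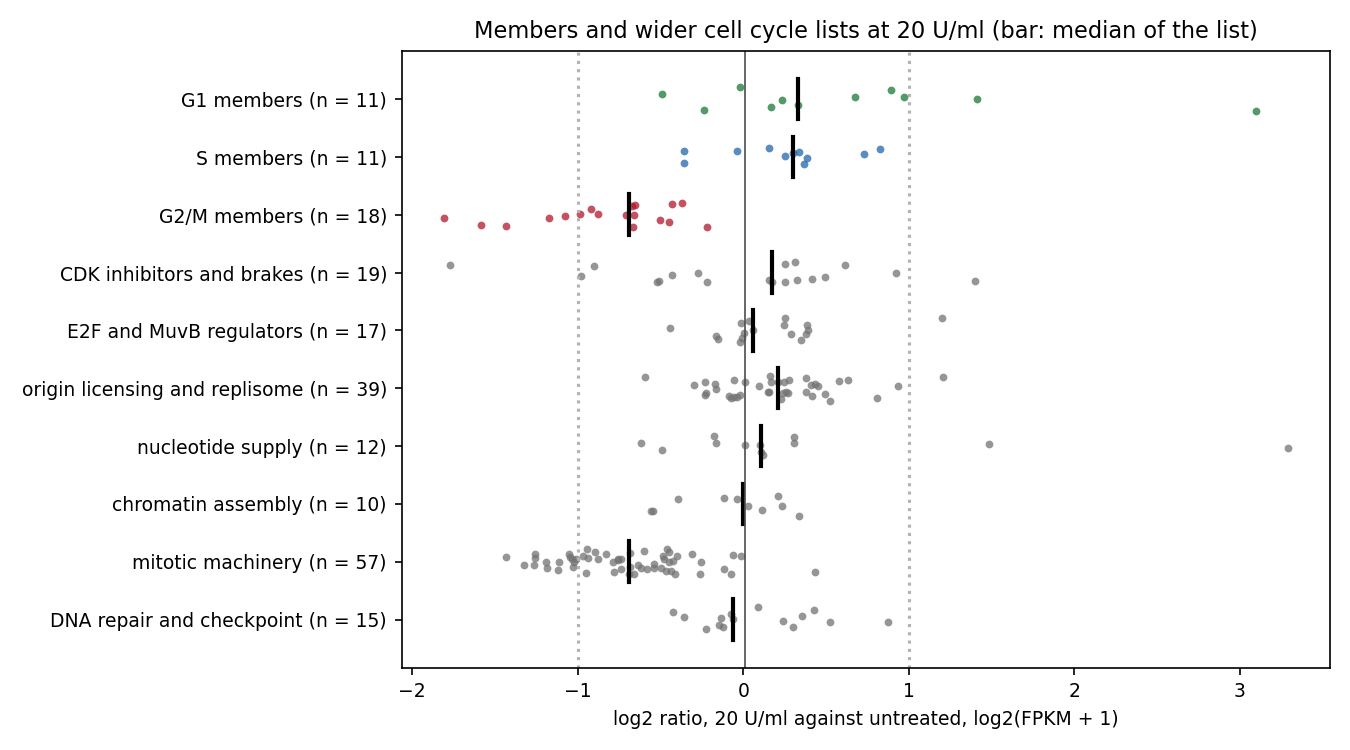
Log2 ratio at 20 U/ml against untreated cells (horizontal axis, log2(FPKM + 1)) of the 40 members by phase and of 169 further cell cycle genes by list. Points are genes, bars list medians, the solid line the median of all entries and dotted lines the 2-fold rule. The G2/M members and the mitotic machinery, both with a median of -0.69, lie to the left of the other lists.

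The second deposited table compares conditions called untreated and treated. Its name gives interferon as the agent, but it names no dose, and whether it comes from the same experiment as the table by dose is not known. Its values are therefore described on their own. In the authors' deposited table, made with Cuffdiff, 20 of 40 members were lower in the treated condition at a q-value of at most 0.05 and 8 were higher. Of all 12854 entries tested in the authors' deposited table, 33.8% were lower and 35.1% higher by that rule. By phase, the authors' deposited table had 10 of 11 S members lower, 7 of 11 G1 members lower and 3 of 18 G2/M members lower, while 4 of 18 G2/M members were higher. The median log2 fold change in the authors' deposited table was -2.49 for S, -1.24 for G1 and -0.12 for G2/M members.

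Mcm2 was at 121 in the untreated and 3.46 in the treated condition of the authors' deposited table, with a q-value of 9.95e-05, the lowest that table holds and shared by 6460 entries. In the authors' deposited table E2f1 was at 22.8 and 1.09, Ccnd1 at 294 and 14.9 and Mcm5 at 44.7 and 3.97, all at that same q. The 3 members of G1 that were higher in the authors' deposited table were Cdkn1a, at 181 and 843, Cdkn1b, at 8.85 and 38.0, and Cdk6, at 6.92 and 15.1. Pcna, at 149 and 220 in the authors' deposited table, was the 1 S member that was higher. Most G2/M members were low in both conditions of the authors' deposited table, with medians of 5.15 and 4.84, and Mki67 was at 1.03 and 0.532. The 4 higher G2/M members in the authors' deposited table were Ccnb1, at 2.52 and 4.63, Aurka, at 4.72 and 7.68, Kif11, at 2.02 and 4.11, and Tpx2, at 6.36 and 11.2. For 11 of the 18 the authors' deposited table gave a q-value above 0.05.

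Set side by side, the untreated medians of the table by dose and of the authors' deposited table were 20.6 and 22.8 for G1 members, 57.4 and 48.9 for S members and 35.1 and 5.15 for G2/M members. Untreated Mki67 was at 35.4 FPKM in the table by dose and at 1.03 in the authors' deposited table. Values of 2 IFNγ response genes follow for both tables. Ly6a was at 18.1 FPKM untreated and 1678 at 20 U/ml in the table by dose, and at 1.30 and 1.15 (q = 0.560) in the authors' deposited table. Gbp2 was at 8.13 and 343 FPKM in the table by dose, and at 0.824 and 1.00 (q = 0.310) in the authors' deposited table.

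**Figure D4:**
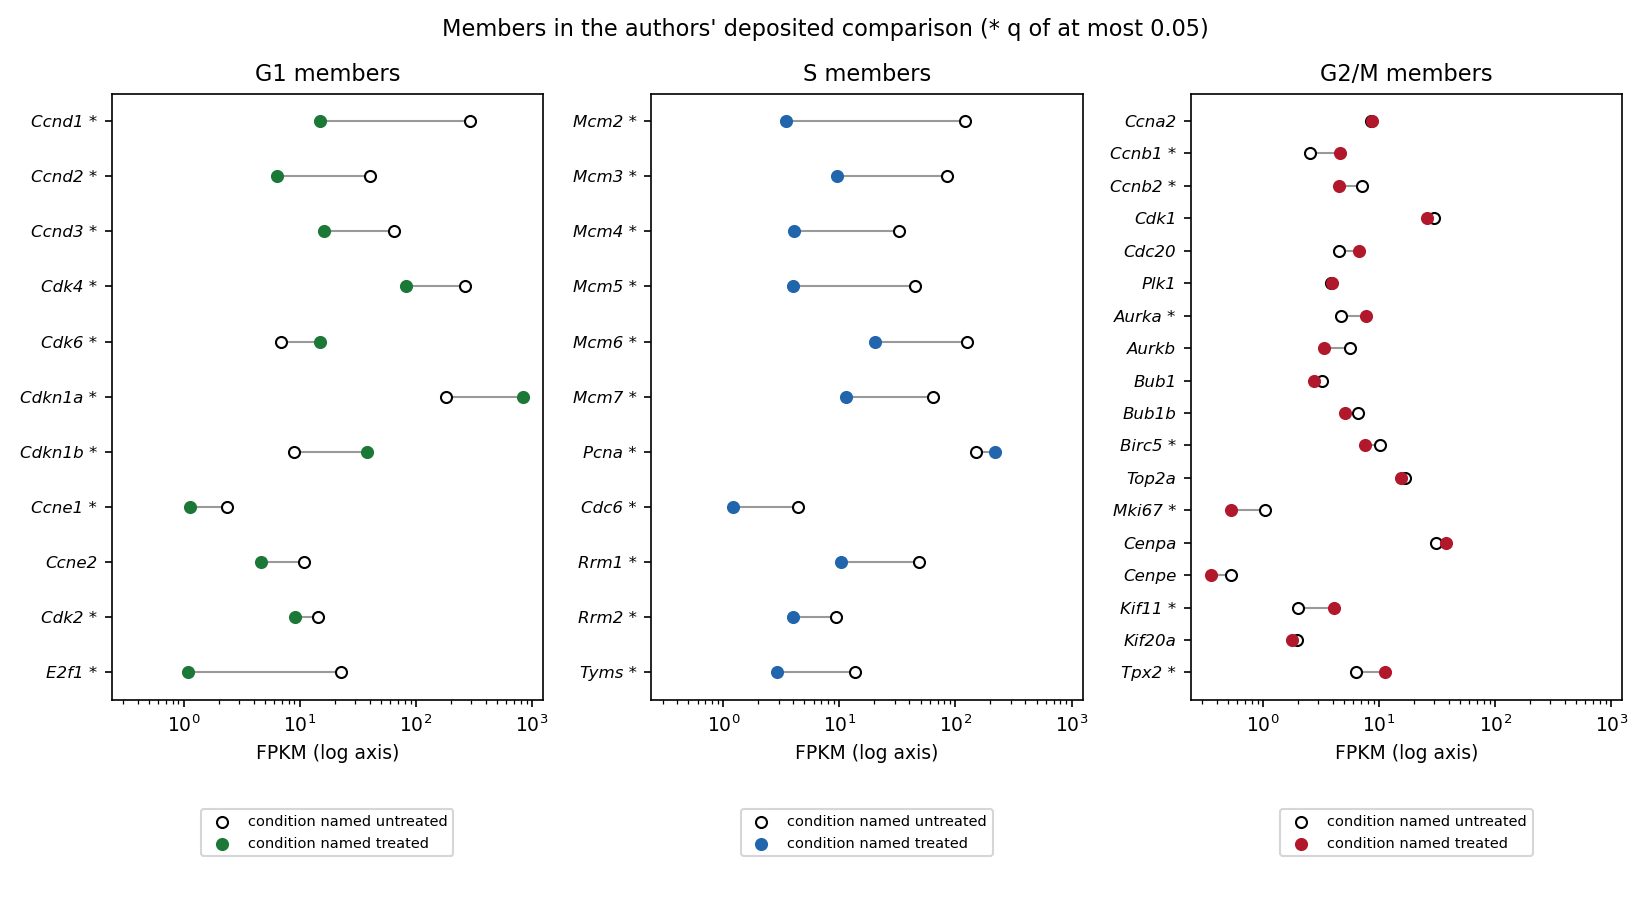
Values of the 40 members in the authors' deposited comparison (horizontal log axis, read as FPKM), by phase, with open points for the condition named untreated and filled points for the condition named treated. An asterisk marks a q-value of at most 0.05. The S members except Pcna lie lower in the treated condition, and the G2/M points lie close together.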

How the data were processed

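RNA from 12 libraries, 3 in each of 4 groups, was sequenced. Per the submitters' processing notes, the tools were Cuffdiff 2.1.1, Cufflinks 2.1.1 and TopHat2 2.1.1, and the build was mm10. The deposited expression table gives FPKM per the file headers, with 1 value per gene and group, and its untreated column, which names no unit, was read as FPKM. The way the authors combined libraries was not given in the sources used here, and depth is unknown. The authors' deposited comparison holds 2 columns of values read as FPKM, a log2 fold change, a test statistic (score), p-values and q-values.

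Ratios were computed as log2(FPKM + 1) differences with pandas 2.3.3 and tested on simulated data. Entries needed a mean of at least 1 FPKM and a value above 0 in every group. No test across doses was possible. Members, lists and rules were chosen with earlier results of these data known. All members are reported, in full where past 1.5-fold or a cyclin, kinase, inhibitor or licensing gene; of each further list, up to 4 entries with the largest ratio at 20 U/ml. Positions are from GENCODE M21 (GRCm38) and promoter windows from RefSeq (GRCm38.p6). The alternatives were other pseudocounts, filters, scalings and size rules.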

Additional observations from a re-analysis of the deposited data

How the results depend on the processing

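Upper-quartile scaling moved the median log2 ratio of all entries at 20 U/ml from 0.01 to -0.13 and quantile normalization to -0.08. Under these 2 scalings, in that order, 8 and 8 members were lower by 2-fold at 20 U/ml in place of 5, with Ccna2, Plk1 and Kif20a added (4.12% and 3.83% of all entries in place of 2.94%). The median of all members was -0.46 and -0.46 in place of -0.30, that of G1 members 0.17 and 0.18, of S members 0.14 and 0.14 and of G2/M members -0.84 and -0.83. At 0.2 U/ml the members' median was -0.14 and -0.22 in place of -0.04. Members higher at every step of dose numbered 3 and 2 in place of 8, and quantile normalization gave 5 lower at every step in place of 3. With a size rule of 1.5-fold, 3, 3 and 7 of 40 members were higher than in untreated cells in order of dose, and 13 were lower at 20 U/ml. Over all 11580 entries 1346, 619 and 1464 were higher in that order, and 1112 were lower at 20 U/ml. From 0.2 to 2 U/ml 2 members were higher, beside 668 of all entries. From 2 to 20 U/ml 3 members were higher and 13 lower, beside 890 and 572 of all entries. Without the 0.2 U/ml value, an alternative chosen after the data were seen, 18 members ran down and 14 up, against 25.7% and 30.3% of all entries. Asking for 2-fold beside the q-value left 4 higher and 16 lower of 40 members in the authors' deposited comparison. Of all 12854 entries tested there, 3042 were higher and 2874 lower by that rule. In all, 600 ratios of single members were recomputed with a pseudocount of 0.1 and both scalings. Of these, 586 kept their side of the size rule and direction of call, and 14 passed it only in the alternative. Another count, of ratios that changed sign, gave 26, each at most 0.235 in size before the change. The largest after it was -0.26, for Cenpa at 0.2 U/ml with quantile normalization. At 20 U/ml 0 of the G2/M members changed sign. The filters on low values and the omission of merged entries moved no count by over 1.5 times and no median by over 0.1, the limit used here. No paired analysis was possible because the columns carry 1 value per group and no replicate number, and for the same reason no replicate could be left out.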

Other observations

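Some genes of the further cell cycle lists had their highest value at 0.2 U/ml, past 2-fold over untreated cells, and were chosen after their values were seen. In order of dose from untreated cells, Cdca2, a mitotic phosphatase regulator, was at 19.3, 64.6, 18.3 and 9.04 FPKM. The motor Kif22 was at 96.8, 210.5, 105 and 44.3 FPKM and the condensin subunit Smc2 at 18.3, 43.7, 17.6 and 10.4 FPKM. Chaf1b, a histone chaperone, was at 22.7, 59.6, 25.0 and 20.9 FPKM, the chromatin remodeller Hells at 13.4, 28.6, 8.54 and 13.0, and Rad51ap1, a repair factor, at 16.4, 44.7, 16.6 and 15.7. With Impdh2, an enzyme of guanine nucleotide synthesis (91.4, 199, 93.4 and 98.2 FPKM), they are the 7 of 169 entries past 2-fold at that dose, where 5.23% of all entries were. High values at 0.2 U/ml were thus not particular to these lists. Over all 11580 entries 606 were higher and 38 lower than in untreated cells by the 2-fold rule. From 0.2 to 2 U/ml 175 were higher and 725 lower. Among the members Cdk6, Ccne2, Cdc20, Aurka, Birc5 and Cenpa had their highest value at 0.2 U/ml too, Cenpa by a narrow margin.

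In the authors' deposited table Btg1 was at 15.3 in the untreated and 477 in the treated condition, Btg2 at 1.90 and 43.6 and Gadd45a at 20.3 and 426, each with a q-value of 9.95e-05 from Cuffdiff. They had the largest upward fold changes among the 19 brakes of the cycle. Of these 19, 10 were higher and 6 lower at a q-value of at most 0.05 in the authors' deposited table. Of all entries tested there, 35.1% were higher and 33.8% lower. In the table by dose, untreated and at 20 U/ml, Gadd45a was at 32.2 and 8.71 FPKM and Btg1 at 27.9 and 75.4. Btg2 was at 5.37 and 7.99 FPKM, within 1.5-fold. Whether the 2 tables come from the same experiment is not known, so their directions are not compared.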
